A study of Homo sapiens with 10 samples.

Results

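All 8 libraries of cells given a Cas9 activator were set together against the 2 libraries of cells labelled as guide only, which takes in 10 of the 10 libraries of the series. The libraries were assigned by their titles, and no measured value entered that choice. The activator groups were VP64, VPR, SAM and Suntag, with 2 libraries each, and Guide Only Control was the group they were compared with. All 5 groups were HEK293T, a human embryonic kidney cell line, transfected with Lipofectamine 2000, a lipid reagent. The activator groups received an activator built on dead Cas9 together with a guide directed at HBG1, which encodes a gamma globin of the fetus, and the control is described by its label alone. Poly(A) RNA was sequenced in bulk. The question of the pooled comparison is what the presence of an activator, of whichever kind, went with across the transcriptome.

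Several features limit these groups as a model. They come from 1 cell line. Whether libraries of a group were grown as separate cultures is not in the labels, and a p-value here reflects library-to-library spread, which may be technical. None of the groups is labelled as dead Cas9 lacking an activation domain. The activation domains and the dead Cas9 that carries them therefore cannot be told apart in the pooled comparison. In bulk RNA, fewer cells that express a transcript and less of it per cell cannot be told apart either.

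Dead Cas9 binds DNA where its guide RNA directs it but does not cut. An activator brings protein domains that recruit the transcription machinery to that site, so that a guide placed at a promoter raises transcription of the gene there. VP64 is a repeat of a herpesvirus activation domain, VPR joins VP64 to the p65 and Rta domains, SAM adds p65 and HSF1 domains by way of hairpins built into the guide RNA, and Suntag gathers copies of VP64 on a peptide array. Gamma globin is an oxygen-carrying chain of fetal haemoglobin made in red cell precursors, and kidney-derived lines are not a place where it is normally made.

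The unit of measurement was the gene cluster, a numbered set of transcripts. The files list 31848 clusters with 82960 transcript identifiers and pair none of them with a gene name. HBG1 and the defining genes of the cell line were therefore not analysed here, and clusters are described by their number of transcripts, transcript length and level. Levels are in CPM, a cluster's estimated counts scaled to the same total in each library. Those totals ran from 3316534 to 7447949 in the activator libraries and were 4659135 and 6072335 in the control libraries. Clusters with enough counts to be tested numbered 13241, and they held 99.8% of the counts of a library. Replicate libraries differed beyond sampling noise in every group, with a chi-square per cluster between 1.70 and 6.14.

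Relative to the guide-only libraries, the pooled activator libraries had 366 clusters higher and 190 lower. Together these 556 calls were 4.2% of the clusters tested by edgeR's quasi-likelihood test at a Benjamini-Hochberg adjusted p under 0.05. The higher ones were 2.76% and the lower ones 1.43% of all tested. The test took the mean of the 4 activators' log2 levels minus that of the control, with a coefficient for each group. An unadjusted p under 0.05 was found for 2592 clusters, 19.6% of those tested.

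The changes were small. The median log2 change was 0.42 among higher calls, a 1.33-fold level, and -0.35 among lower calls, 0.782 of the control level, against a median of -0.0074 over all tested clusters. Of the calls, 473, or 85.1%, were under 1.5-fold, and the smallest called change was 0.21 on the log2 scale. Calls of at least 2-fold numbered 19, or 0.143% of the clusters tested, with 11 higher (0.0831%) and 8 lower (0.0604%). Among the higher ones a pair of single transcripts of 6807 nt had identical values and is best read as 1 level. Each had 118 counts over the activator libraries and 8.53 over the control libraries. A single transcript of 6806 nt was among the lower ones, with 46.9 counts over the activators and 53.5 over the control. Whether reads were divided differently among these transcripts of near-equal length was not tested, so neither change is clear. Of the 19, 3 had a group at 0 counts, so their fitted change is no measure of size. When the test asked for a change beyond 1.5-fold itself, 1 cluster passed after adjustment and 99 before it. That cluster, a single transcript of 301 nt described further on, had a log2 change of 2.52 (edgeR, adjusted p = 0.0252).

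For most clusters the data bounded the pooled change. The 95% interval of the log2 change lay within 1.5-fold in either direction for 9444 clusters, 71.3% of those tested, and 279 of these were among the calls. For the other 3797 the interval was wider. This precision went with level. Intervals lay within 1.5-fold for 1.68% of 2148 clusters under 5 CPM, 62.2% of 3377 at 5 to 20 CPM, 93.7% of 5717 at 20 to 100 CPM and 97.7% of 1999 at 100 CPM or more. The calls followed the same order, with 10.7% of the most abundant class called and 0.466% of the least abundant one.

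**Figure D1:**
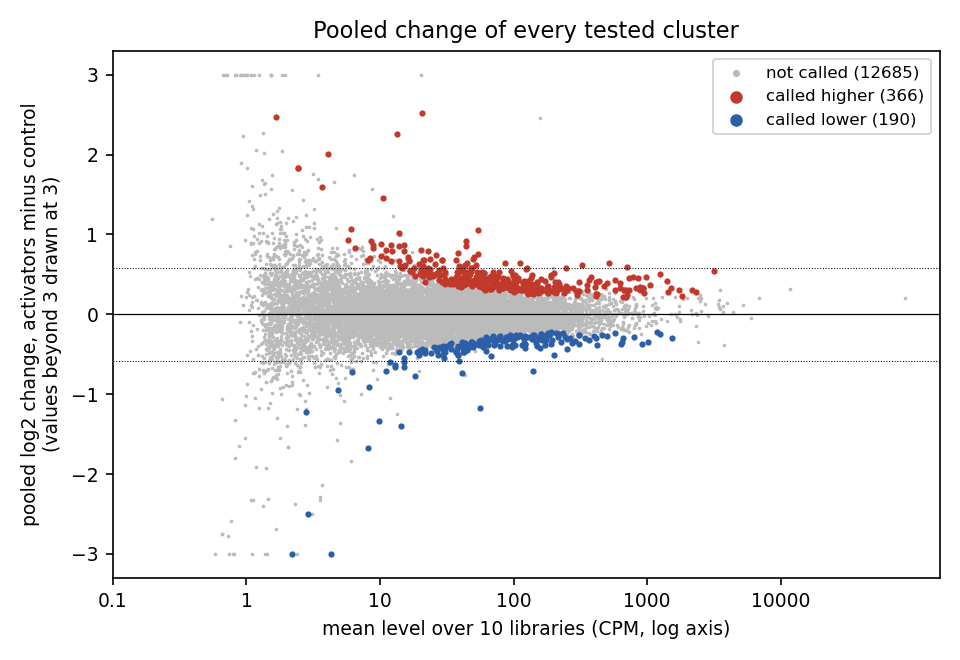
Each point is 1 tested cluster, with its mean level over the 10 libraries in CPM on a logarithmic x axis and its pooled log2 change, activators minus control, on the y axis, and dotted lines at 1.5-fold. Most of the 366 red points (called higher) and 190 blue points (called lower) lie between the dotted lines.

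The number of calls rested on the few control libraries and on the form of the test. A fit without control replicate 1 called 57 clusters and a fit without control replicate 2 called 4. In both fits the lone control library is assumed to vary like the other groups. Of the 556 calls, 42 were called again in the fit without control replicate 1 and 2 in the fit without control replicate 2. The direction was the same in both fits for 554 of the 556. Each fit reuses libraries from which the 556 were called, so this was largely set in advance. The median standard error of the calls was 0.0867 with both control libraries, 0.116 without the first and 0.122 without the second, while their median changes moved little, at 0.41 and 0.42 for higher and -0.36 and -0.34 for lower calls. Without an activator term, so that differences between activators counted as spread, edgeR called 10 clusters, all higher. An unadjusted p under 0.05 was then found for 1688 of the 13241 clusters tested. Among them were 544 of the 556, which were chosen from the same libraries. Activator libraries moved the count as well, with 320 calls without VP64 replicate 1, 273 without VP64 replicate 2, 295 without SAM replicate 2 and 1024 without Suntag replicate 2.

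A simpler reading asks whether all 8 activator libraries lay on the same side of both control libraries. This held for 454 of the 556 calls, 294 higher and 160 lower. It held for 1528 clusters of all tested, 11.5%, of which 608 (4.59%) were higher and 920 (6.95%) lower. For the other 102 calls at least 1 activator library reached the range of the control. Suntag replicate 2 did so in 43 calls and SAM replicate 1 in 31, whereas VPR replicate 2 did so in 3. The calls were thus not equally clear in each activator. Against the same control libraries, the median log2 change of the higher calls stood at 0.40 with VP64, 0.56 with VPR, 0.35 with SAM and 0.40 with Suntag. The lower calls had medians of -0.28 with VP64, -0.38 with VPR, -0.43 with SAM and -0.31 with Suntag.

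Clusters whose counts were whole numbers in all 10 libraries, within 0.01, show no sign of reads divided between clusters, and their levels are the least ambiguous. Of 2691 such clusters tested, 54 were called. The largest rise among those with all 8 activator libraries beyond both controls was in cluster 3831, of 2 transcripts and 3920 nt. Its counts were 12 and 9 for VP64, 19 and 18 for VPR, 25 and 33 for SAM, and 20 and 28 for Suntag, against 7 and 7 for the control. Every activator library had more counts than either control library, and the SAM libraries were the highest in CPM. The level was 4.30 ± 2.09 CPM in the activator libraries (SD, n = 8) and 1.33 ± 0.247 CPM in the control libraries (SD, n = 2). The pooled log2 change was 1.59 ± 0.36 (SE; edgeR, adjusted p = 0.0241), and the call ended without SAM replicate 2 (0.0502) or either control library (0.141 and 0.251).

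Cluster 22076, of 4 transcripts and 803 nt, was next. Its counts were 74 and 49 for VP64, 79 and 108 for VPR, 62 and 99 for SAM, and 76 and 57 for Suntag, against 34 and 48 for the control. Scaled to the libraries' totals the groups did not overlap, as the rule that singled out the cluster required. The lowest activator library, Suntag replicate 2, had 10.2 CPM, against 7.30 and 7.90 CPM in the control libraries. The mean was 15.3 ± 3.59 CPM in the activators (SD, n = 8) and 7.60 ± 0.429 CPM in the control (SD, n = 2). The pooled change came to 1.01 ± 0.17 on the log2 scale (SE; edgeR, adjusted p = 0.00659).

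Another 8 clusters with whole counts followed, with log2 changes between 0.70 and 0.92, transcript lengths of 654 to 3817 nt, and edgeR adjusted p-values from 0.0142 to 0.0409. One of them, of 3 transcripts and 3817 nt, had an activator range of 10.0 to 16.2 CPM with a median of 13.6, against 7.30 and 8.23 CPM in the control libraries. The narrowest gap among the 8 was in a cluster of 6 transcripts and 2345 nt, at 4.30 CPM in its lowest activator library against 4.08 CPM in the higher control library.

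The falls among whole-count clusters were smaller and in longer transcripts. Cluster 6994, of 5 transcripts and 7452 nt, had 53 and 30 counts for VP64, 46 and 89 for VPR, 41 and 54 for SAM, and 70 and 87 for Suntag, against 94 and 105 for the control. It stood at 11.5 ± 2.15 CPM in the activators (SD, n = 8) and 18.7 ± 2.04 CPM in the control (SD, n = 2). The groups did not overlap, as the rule that singled out the cluster required. Suntag replicate 2 was the highest activator library at 15.6 CPM, against 17.3 CPM in the lower control library. The log2 change was -0.67 ± 0.14 (SE; edgeR, adjusted p = 0.0175).

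Cluster 15217, of 2 transcripts and 2718 nt, ranged from 22.0 to 35.7 CPM in the activator libraries with a median of 26.7, against 42.1 and 40.3 CPM in the control libraries. Suntag replicate 2 again came nearest to the control and VP64 replicate 2 was the lowest. The log2 change was -0.55 ± 0.11 (SE; edgeR, adjusted p = 0.0152). A further 8 clusters fell by 0.43 to 0.50 on the log2 scale, with lengths of 3676 to 16122 nt and edgeR adjusted p-values from 0.00991 to 0.0392.

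**Figure D2:**
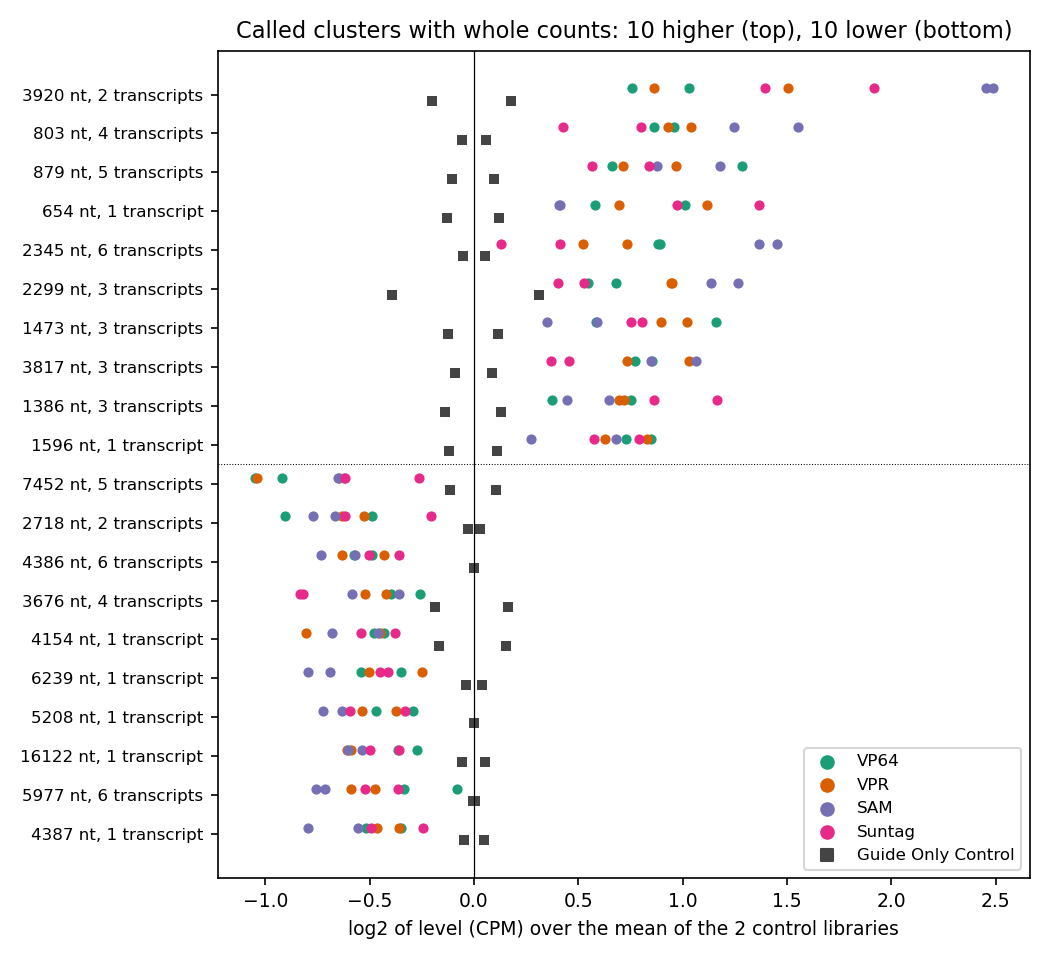
Rows are the 10 higher (top) and 10 lower (bottom) called clusters with whole counts and no overlap between groups, and the x axis gives the log2 of each library's level over the mean of the 2 control libraries, with circles for activator libraries and squares for control libraries. In every row all 8 circles lie on one side of both squares, from cluster 3831 (3920 nt, log2 change 1.59) at the top to changes near -0.43 at the bottom.

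Calls of large size mostly lay in clusters whose counts were not whole, as did the calls at large. Of the 19 calls of at least 2-fold, 2 had whole counts, the clusters 3831 and 22076 above. Whole counts were found in 54 of all 556 calls and in 2691 of the 13241 clusters tested. A pair of single transcripts of 301 nt gave log2 changes of 2.52 ± 0.30 and 2.26 ± 0.36 (SE; edgeR, adjusted p = 0.00196 and 0.00529). Their counts were not whole singly, and their sums lay within 0.08 of a whole number, so the pair is best read as 1 level. Summed, it ranged from 15.9 to 60.9 CPM in the activator libraries, against 9.01 and 6.09 CPM in the control libraries. The mean was 40.6 ± 15.1 CPM in the activators (SD, n = 8) and 7.55 ± 2.07 CPM in the control (SD, n = 2), a ratio of means of 5.37. The groups did not overlap, which the rule that singled out both transcripts required.

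A single transcript of 2095 nt also ranked high, with a pooled change of 2.47 ± 0.61 on the log2 scale (SE; edgeR, adjusted p = 0.0330), but it rested on 4 to 21.8 counts per activator library against 1 and 2 counts in the control. From summed counts the ratio was 6.47, with an exact 95% interval of 2.13 to 32.1 that covers counting error only, so the size of the rise was poorly determined. The call ended without either VP64 library (edgeR, adjusted p = 0.0673 and 0.0694), VPR replicate 1 (0.0618), either SAM library (0.0507 and 0.0783) or either control library (0.230 and 0.232).

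Among the lower calls with counts not whole and no overlap between groups, the first by size was not detectable on summing. A cluster of 3 transcripts and 2210 nt had a fitted change of -2.50 ± 0.41 on the log2 scale (SE; edgeR, adjusted p = 0.00693), with no counts in either SAM library (a limit of 0.381 CPM from 3 counts over the group), so the fitted value is no measure of size. Its counts and those of a neighbouring cluster summed to whole numbers within 0.02 in every library. Summed, the pair stood at 5.97 ± 1.08 CPM in the activators (SD, n = 8) and 6.29 ± 0.513 CPM in the control (SD, n = 2), a ratio of 0.949 (exact permutation test, p = 0.756, two-sided). The groups overlapped, and no fall of the summed level was detectable. A single transcript of 699 nt (log2 change -1.33) and a cluster of 5 transcripts and 2063 nt (-1.23) were also called lower, and summing with the adjacent clusters did not give whole counts, so their levels are uncertain. The 699 nt transcript had no counts in SAM replicate 2, and its fitted change was -3.08 without SAM replicate 1, a value against 0 counts in the remaining SAM library that is no measure of size.

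Among the most abundant calls with no overlap between groups, the first was a cluster of 4 transcripts and 2187 nt. It ranged from 3143 to 3763 CPM in the activator libraries with a median of 3266, against 2551 and 2195 CPM in the control libraries. Its lowest activator library lay above both controls, as the rule required. The log2 change was 0.54 ± 0.062 (SE; edgeR, adjusted p = 0.00196). The next, of 876 nt and 705 nt, averaged 2254 and 1579 CPM in the activators against 1861 and 1280 CPM in the control, log2 changes of 0.31 and 0.33. None of these higher clusters had whole counts, and summing the 876 nt and 705 nt clusters with adjacent ones did not give them. Summed, the 705 nt cluster overlapped, at 1401 CPM in its lowest activator library against 1416 and 1383 CPM in the control. The 876 nt cluster did not, at 1937 CPM against 1899 and 1850 CPM.

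The most abundant lower call, of 2 transcripts and 3676 nt, ranged from 1328 to 1577 CPM in the activators with a median of 1452, against 1754 and 1925 CPM in the control. All 8 activator libraries lay below both control libraries, as the rule required. Its log2 change was -0.30 ± 0.055 (SE; edgeR, adjusted p = 0.00964). Clusters of 6728 nt and 2930 nt followed with changes of -0.24 and -0.22. The counts of these lower clusters were not whole either.

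The pooled change went with transcript length. In the class under 700 nt, with 248 tested clusters, 27.4% rose and 0.403% fell, and among 1741 clusters of 700 to 1500 nt 10.7% rose and 0.0574% fell. At 1500 to 3000 nt the shares were 1.88% higher and 0.741% lower of 4992. Among 5970 clusters of 3000 to 9000 nt they were 0.285% higher and 2.45% lower. The balance thus turned with length, and the median change over all clusters of a class did likewise. It was 0.33 under 700 nt, 0.18 at 700 to 1500 nt, 0.024 at 1500 to 3000 nt, -0.074 at 3000 to 9000 nt and -0.093 in 290 clusters of 9000 nt or more. The median length was 1063 nt among higher calls and 4313 nt among lower calls, against 2871 nt over all tested clusters.

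**Figure D3:**
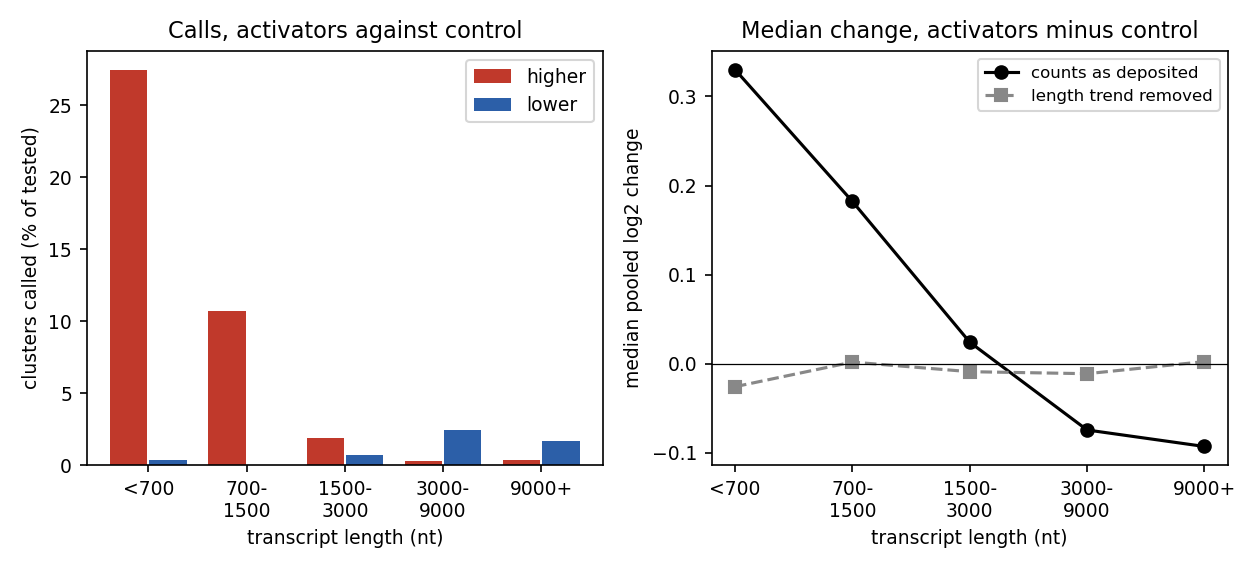
The left panel gives the share of tested clusters called higher (red) or lower (blue) in activators against control in 5 classes of transcript length in nt, and the right panel the median pooled log2 change per class for the deposited counts (circles) and after removal of each library's trend with length (squares). Calls are mostly higher under 1500 nt and mostly lower over 3000 nt, and the median reaches -0.093 in the longest class on the deposited counts and lies between -0.026 and 0.0025 once the trend is removed. The removal itself brings the class medians near 0.

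With each library's trend on transcript length removed, edgeR called 102 clusters, 52 higher and 50 lower. Of these, 81 were among the 556, which is 79.4% of the shorter list and 14.6% of the longer one. Under 700 nt 2 calls were then higher and 1 lower, and at 3000 to 9000 nt 16 were higher and 17 lower. The removal takes out any shift shared by clusters of like length, so this balance was largely set in advance. A test on the deposited TPM, which adjust for effective length within each library, called 137 clusters, 78 higher and 59 lower, by limma on log2(TPM + 1). It shared 122 with the 556. The balance with length remained on TPM, with a median length of 880 nt among higher and 3501 nt among lower calls. The median change on that scale was 0.16 under 700 nt and -0.14 at 3000 to 9000 nt, against -0.085 over all tested clusters.

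The clusters named above fared differently with the trend removed. Of the 35 clusters singled out, 13 stayed called and 22 did not. Cluster 3831 had a log2 change of 1.65 (edgeR, adjusted p = 0.0479), cluster 22076 one of 0.75 (0.0373) and cluster 15217 one of -0.54 (0.0373). Cluster 6994 no longer passed, at -0.58 (0.0599). The abundant cluster of 2187 nt kept a change of 0.51 (edgeR, adjusted p = 0.00234) and the first transcript of 301 nt one of 2.03 (0.00234). By contrast the abundant clusters of 876 nt and 705 nt stood at 0.063 and 0.038 (edgeR, adjusted p = 0.566 and 0.763).

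The activator and control libraries also lay apart on some library measures. Mean fragment length, taken as deposited transcript length less effective length, came to 107 ± 11.4 nt in the activator libraries (SD, n = 8; lowest 90.8, median 108, highest 124), against 133.87 and 130.32 nt in the control libraries. The median log2 deviation of clusters under 700 nt minus that of clusters over 3000 nt was 0.083 ± 0.18 in the activators (SD, n = 8; lowest -0.20, median 0.12, highest 0.36), against -0.31 and -0.33 in the control. The second measure is the shift with transcript length above, taken library by library from the same counts, and no separate support for it. Among the activator libraries these measures did not share one order. Suntag replicate 2, with the shortest fragments, had a short-minus-long value of -0.10, and VP64 replicate 2, with the longest, had 0.12. SAM replicate 1, at 117 nt, had the lowest value. On both measures no activator library reached the control range. The exact permutation test gave p = 0.0444 for each (two-sided), the smallest that 8 against 2 libraries allow, and 0.0889 after adjustment over 4 measures, so neither passed. What part fragment length had in the shift with transcript length was not tested.

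The remaining measures did not separate the groups. The 10 most abundant clusters took 13.8 ± 0.801% of the counts in the activators (SD, n = 8) and 12.6 ± 0.0274% in the control (SD, n = 2; exact permutation test, adjusted p = 0.178). The number of clusters with a count averaged 16572 in the activators and 16503 in the control (exact permutation test, p = 0.756).

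**Figure D4:**
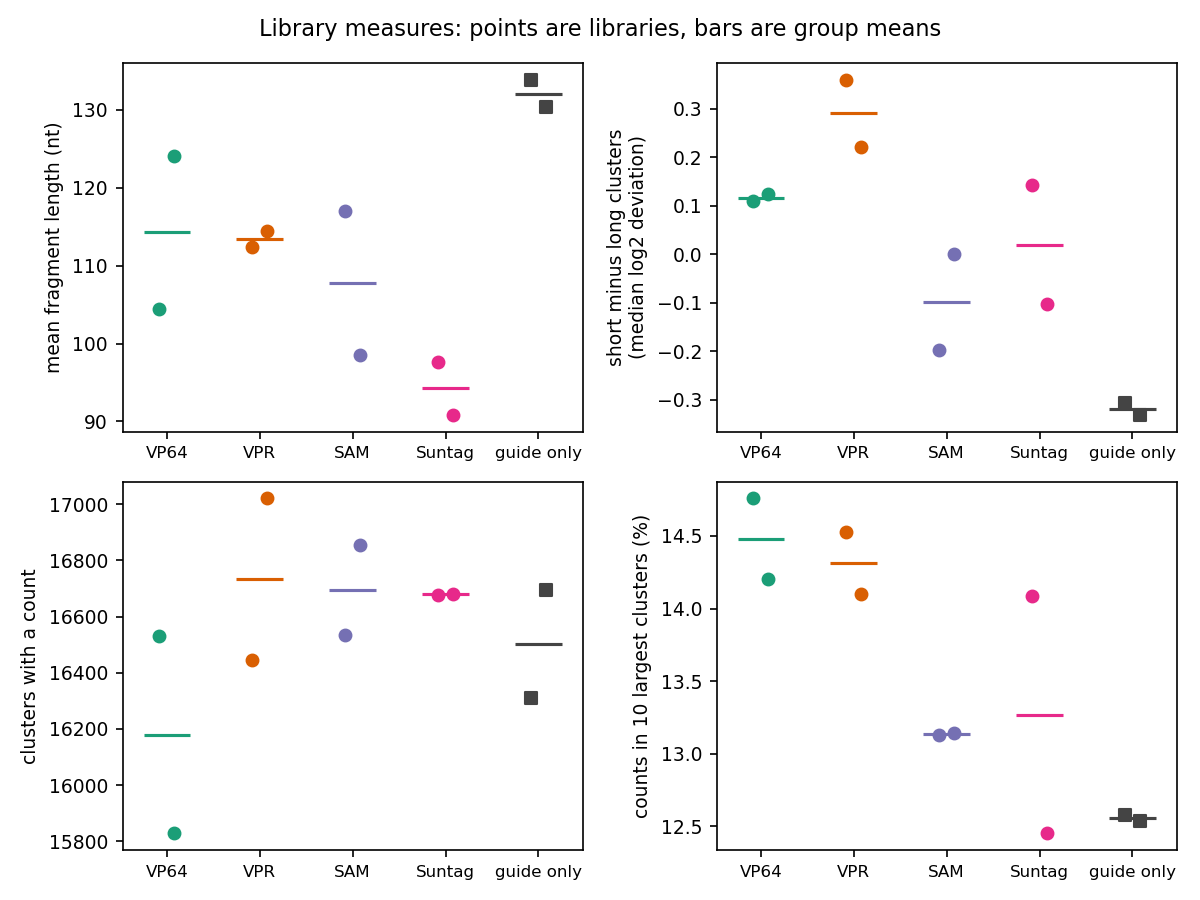
Each point is 1 library and each bar a group mean, for mean fragment length in nt, the short-minus-long median log2 deviation, the number of clusters with a count, and the percent of counts in the 10 largest clusters. The control libraries have the longest fragments (133.87 and 130.32 nt) and the lowest short-minus-long values (-0.31 and -0.33), and lie within the range of the activator libraries on the other measures.

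A pooled mean can also cover activators that differ. By edgeR's test among the 4 activators, 520 clusters differed, 3.93% of those tested, and 86 of these, or 15.5% of the 556 calls, were pooled calls. In 53 of the 86, SAM was the activator whose log2 change lay farthest from the other activators, against 16 for VPR, 10 for Suntag and 7 for VP64. Over all 13241 tested clusters SAM lay farthest in 4875, against 2527 for VPR, 2878 for Suntag and 2961 for VP64. This ranking is a description. Without the SAM group the test found 15 clusters that differed, and leaving out single libraries gave anything from 11 (SAM replicate 1 left out) to 1564 (Suntag replicate 1 left out). It also moved by over 1.5 times without VP64 replicate 1 (86), VP64 replicate 2 (146), VPR replicate 1 (240), SAM replicate 2 (54), control replicate 1 (336) and control replicate 2 (333).

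The called cluster with the clearest difference, of 2 transcripts and 2153 nt, stood at 598 and 495 CPM in the SAM libraries. The other 6 activator libraries lay between 101 and 140 CPM, against 113 and 127 CPM in the control. High values were thus found in SAM alone, while the others overlapped with the control. The pooled log2 change was 0.51 ± 0.094 (SE; edgeR, adjusted p = 0.00957) and the adjusted p among the activators was 7.27e-09. Without the SAM group the change was -0.034 (edgeR, adjusted p = 0.882).

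Likewise, a cluster of 5 transcripts and 1970 nt held 335 and 332 CPM in SAM and 508 to 562 CPM in the other activators, against 596 and 564 CPM in the control (pooled log2 change -0.27; edgeR among activators, adjusted p = 0.000252). A cluster of 3 transcripts and 1533 nt held 314 and 293 CPM in SAM and 180 to 187 CPM in the other activators, against 166 and 187 CPM in the control (pooled log2 change 0.27; edgeR among activators, adjusted p = 0.00144). In both, SAM stood apart and the other activators lay near the control range.

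**Figure D5:**
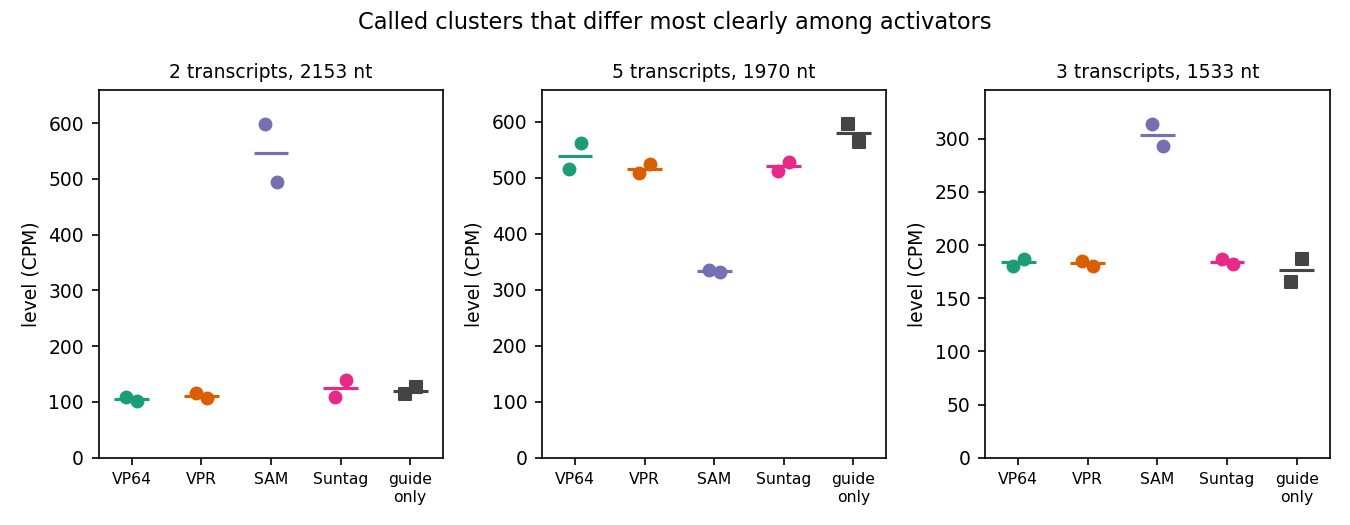
Points are the levels in CPM of single libraries and bars are group means, for the 3 called clusters with the smallest p among the activators. In each panel the SAM libraries stand apart (598 and 495, 335 and 332, and 314 and 293 CPM) while VP64, VPR and Suntag lie close to the guide-only libraries.

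The pooled test can also miss a cluster that most activators raised. One of 4 transcripts, singled out after its values were seen, had no counts for VP64 (a limit of 0.346 CPM from 3 counts over the group), 88 and 75 for VPR, 260 and 295 for SAM, and 106 and 73 for Suntag, against 0 and 3 for the control. VPR, SAM and Suntag were thus far above the control and VP64 was not. The mean of logarithms has no defined size with a group at 0, and the pooled test gave an unadjusted p of 0.999, while the test among the activators gave an edgeR adjusted p of 1.88e-06. Over the 8 libraries against 2 the exact permutation p was 0.267 (two-sided). Tested clusters with at least 1 group at 0 numbered 67, of which 3 were called.

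Fewer calls held when activator libraries or activator groups were left out. In all 8 fits without 1 activator library 237 of the 556 were called, and in all 4 fits without 1 activator group 189. A set of 43, with 24 higher and 19 lower, was called in all of those fits, with the length trend removed and on TPM. The fits without 1 control library and the fit with no activator term were not among these criteria. With no activator term 10 of the 556 were called. This set was defined after the fits were seen. Its log2 changes ran from 0.41 to 2.52 among the higher and from -1.17 to -0.30 among the lower clusters, and its lengths from 301 to 6884 nt. The set holds fewer separate changes than 43. It counts both transcripts of 301 nt, and a pair of 5233 nt clusters with the same fitted log2 change of -0.51.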

How the data were processed

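Poly(A) RNA-seq of 10 HEK293T libraries was analysed from deposited tables. The submitters' processing notes name RSEM 1.2.1 and hg19. The annotation of transcripts was not given in the sources used here. The authors' tables, per the file headers, give an expected count per cluster, estimated and not always whole because reads that match several transcripts are divided, and a TPM value, scaled within a library. Per the file headers they also give transcript and effective lengths, whose difference was taken as the mean fragment length. The deposited FPKM were not used. Per the labels' protocols the libraries were random-primed and tagmented, so strand was not marked and antisense or overlapping genes cannot be told apart.

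After rounding to integers, the expected counts entered edgeR 4.0.16 in R 4.3.3 (filterByExpr, TMM factors, quasi-likelihood F test, 5 residual degrees of freedom, Benjamini-Hochberg adjustment over all 13241 clusters, threshold 0.05). The pooled contrast weights the 4 activators equally. Changes beyond 1.5-fold were tested with glmTreat. Library measures were compared by exact permutation over 45 splits, two-sided. CPM use the library's total. Totals of 3316534 to 7447949 counts limit precision at low levels. Alternatives were DESeq2 1.42.0, RLE factors, other filters, a replicate block, no activator term, a loess trend on transcript length (span 0.5) removed from each library, whole-count clusters alone, limma 3.58.1 on log2(TPM + 1), and fits without each library or group. Scripts were tested on simulated data.

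Clusters were singled out by a rule. Among calls with a mean of at least 1 CPM and no overlap between groups it takes the first 10 higher and 10 lower by size with whole counts, the first 3 each way with counts not whole, and the first 3 each way by level. It adds the 3 calls with the smallest p among activators. At most 2 higher and 2 lower clusters are given by number. Members, measures and rules were chosen with earlier results of these data known. Of 82960 transcript identifiers, 5 matched a synonym in the RefSeq gene table of a later assembly.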

Additional observations from a re-analysis of the deposited data

Results flagged for a closer look

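A difference between activators, tested by edgeR with Benjamini-Hochberg adjustment, drew attention to 7 of the 35 clusters singled out for the pooled comparison. The adjusted p among the 4 activators was 7.27e-09 for the cluster of 2 transcripts and 2153 nt, where SAM was high. It was 0.000252 for the cluster of 1970 nt, where SAM was low, and 0.00144 for that of 1533 nt, where SAM was high. It was 0.0105 for the cluster of 2210 nt, which held no counts in SAM and whose reads are shared with a neighbour. It was 0.0383 for the single transcript of 2095 nt, which rests on few counts. It was 0.0161 for each of the abundant clusters of 876 nt and 705 nt. The log2 change of the 876 nt cluster against the shared control was 0.36 in VP64, 0.52 in VPR, 0.060 in SAM and 0.29 in Suntag. That of the 705 nt cluster was 0.42 in VP64, 0.53 in VPR, 0.072 in SAM and 0.31 in Suntag. No library stood far from the rest of the activators by Dixon's criterion in any of 39 sets of 8 values, where chance alone would mark about 1 in 20. The criterion looks for 1 library apart from the rest, so it can miss 2 libraries of a group that stand apart together. The SAM libraries did so in the 2153 nt cluster.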

How the results depend on the processing

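Direction was kept by the named clusters in the fits that gave them a value, except that the 2153 nt cluster reversed to -0.034 without the SAM group. RLE factors (553 calls), a mean of at least 1 CPM (563) and summed read-sharing pairs (555, chosen after seeing the data) stayed near the 556 calls. DESeq2 called 414, and 348 of the 556 were among them, 241 higher and 107 lower. Totals, then higher and lower calls, were 1095, 627 and 468 with no filter, 10, 10 and 0 with no activator term (711 lower at an unadjusted p under 0.05 by edgeR, and 130 lower by DESeq2 with the activator term), 102, 52 and 50 with the length trend removed, 94, 60 and 34 on whole counts alone, 137, 78 and 59 on TPM, and 19, 11 and 8 at 2-fold or more. They were 261, 157 and 104 without the VPR group, 1093, 641 and 452 without the Suntag group, and 487, 373 and 114 without the SAM group. Without 1 library they ran from 4 to 1024 in all, 2 to 622 higher and 2 to 402 lower. Clusters that differed among activators numbered 2135 with no filter and 15 without the SAM group, and 11 to 1564 without 1 library. Clusters beyond 1.5-fold numbered 33 with no filter, 2 at a mean of 1 CPM, and 0 (without VP64 replicate 1, with 112 unadjusted) to 5 without 1 library. Intervals within 1.5-fold numbered 7447 to 9496 without 1 library and 9836 with no filter. The difference in clusters with a count, 68.5, reversed to -124.5 without control replicate 1 and was 261.5 without control replicate 2. The causes were not tested.

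Replicate numbers did not pair the libraries, as same-numbered deviations correlated between -0.067 and 0.062 over 10 pairs of groups. With the replicate block there were 462 calls, 312 higher and 150 lower, of which 448 were among the 556. With it 345 clusters differed among activators and 2 lay beyond 1.5-fold. Of the 35 named clusters 33 stayed called with the block, 13 with the length trend removed, 11 on TPM, 5 without control replicate 1, 0 by edgeR without control replicate 2 (35 at an unadjusted p under 0.05) and 1 with no activator term. Depth limits clusters under 5 CPM, whose median standard error was 0.37.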

Other observations

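Of the transcript identifiers, 5 appear as synonyms in the RefSeq gene table, all of them long noncoding RNAs, and the version was the same for ACTA2-AS1 alone. ACTA2-AS1, ZNF350-AS1 and HNF4A-AS1 had no counts in any library, which allows up to 0.0743 CPM over the activator libraries and 0.280 CPM over the control libraries from a limit of 3 counts that covers counting error only. MIR7-3HG had 1 count in the activator libraries and 0 in the control, and LINC01426 had 10.8 counts in the activator libraries, at most 3.64 in 1 library, and 0 in the control. None of them had enough counts to be tested, and strand was not marked, so reads of an overlapping gene on the other strand cannot be told apart.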
